A study of Rattus norvegicus with 22 samples.

Results

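Hmox1 (ENSRNOG00000014117) and Hspb1 (ENSRNOG00000023546), the genes of heme oxygenase 1 and of heat shock protein 27, were followed in rat cortex 24 hours after a penetrating ballistic brain injury (PBBI) or a sham procedure. These 2 genes were taken by name from the 32545 gene identifiers of the count table, 23572 of which held at least 1 count. Tissue came from adult male Sprague-Daley rats (strain name as spelled in the sample labels), all of which wore implanted electrodes for sleep recording and carried no genetic modification. In the 6 PBBI rats a probe was passed into the right frontal brain and an elastic balloon at its end was briefly inflated, and the 5 sham rats had the same surgery with no probe passed into the brain. The injured (ipsilateral) and the opposite (contralateral) hemisphere of each of the 11 rats gave 1 sample each, 22 in all. PBBI leaves a cavity with torn vessels and tissue, and the sham rats had no probe track. The study's paper does not say how near the cavity the cortical samples were taken.

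Heme oxygenase 1 opens the ring of heme, which hemoglobin releases when red blood cells break down in tissue, and yields biliverdin, carbon monoxide and iron. Its gene is among the best known targets of the transcription factor NRF2, which is freed by oxidative stress, and is held down by the heme sensor BACH1. Hspb1 encodes a small heat shock protein that binds unfolding proteins without using ATP and guards actin filaments, and its transcription is driven by heat shock factor 1. In brain, heme oxygenase 1 is known from microglia and invading macrophages, and heat shock protein 27 from reactive astrocytes and vessels.

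Depth was similar across samples, with 42085341 to 63412426 counts assigned to genes per sample. Values are given as CPM, counts divided by library size and put on a common scale with the trimmed mean of M-values (TMM) over the 22 samples. The ipsilateral library of PBBI rat 85 stood apart: its profile correlated with those of its group at a mean r of 0.835, against 0.933 to 0.943 for the other 5, and its TMM factor was the lowest, at 0.706. The labelled tissue was not checked against neuron or oligodendrocyte markers, because no gene of those lists was among the 1822 identifiers that could be paired with a symbol. The astrocyte gene Gfap was present in every sample, from 340.9 to 6829.84 CPM. Sample titles held the letters PFC for both samples of PBBI rat 81 and the contralateral sample of sham rat 82, and for no other sample. Whether these came from a different piece of cortex was not tested.

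In the ipsilateral cortex Hmox1 was far higher after PBBI than after sham. Its CPM was 491 in PBBI rat 81, 80.9 in rat 83, 40.2 in rat 85, 217 in rat 88, 132 in rat 90 and 126 in rat 96. In the ipsilateral sham samples it was 5.16 in rat 82, 8.0 in rat 84, 3.42 in rat 86, 4.74 in rat 91 and 5.58 in rat 94. The groups did not overlap, and the lowest PBBI sample was still at 7.47 times the sham mean while the highest was at 91.3 times that mean. These levels rest on 1779 to 31345 counts per PBBI library and on 128 to 421 per sham library. The means were 181 CPM ± 163 (SD, n = 6) and 5.38 CPM ± 1.67 (SD, n = 5).

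The log2 fold change of Hmox1 was 5.07 (SE 0.628), or 33.6-fold, with an adjusted p of 0.00164 by edgeR's quasi-likelihood test with Benjamini-Hochberg adjustment. Of the 16104 genes tested ipsilaterally, 753 passed an adjusted p of 0.05, which is 4.68%, with 659 higher and 94 lower in PBBI. Hmox1 stood 24th of them all by p and 39th by fold change. In an exact two-sided permutation test on the log2 CPM of Hmox1 alone, p was 0.00216, the smallest value that the 462 splits of 6 and 5 rats can give, and 6 of 6 PBBI rats lay above every sham rat. Such full separation upward was found in 3.5% of the genes tested. In bulk tissue more cells of a type that makes a transcript and more of that transcript per cell cannot be told apart.

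In the contralateral cortex Hmox1 differed far less between groups. Its CPM was 24.5 in PBBI rat 81, 10.9 in rat 83, 5.90 in rat 85, 29.3 in rat 88, 8.58 in rat 90 and 5.86 in rat 96. The contralateral sham samples had 5.06 in rat 82, 6.52 in rat 84, 3.75 in rat 86, 8.12 in rat 91 and 5.47 in rat 94. Rats 81 and 88 carried the 2 highest values, while rats 85 and 96 lay inside the sham range. The log2 fold change was 1.30 (SE 0.436), with p = 0.0103 before and 1.00 after adjustment over 15907 genes by edgeR, and p = 0.0584 in the exact two-sided permutation test, with 4 of 6 rats above every sham rat.

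Hspb1 had the larger ipsilateral difference of the pair in log2 fold change. Its CPM was 278 in PBBI rat 81, 35.0 in rat 83, 178 in rat 85, 656 in rat 88, 401 in rat 90 and 291 in rat 96. The ipsilateral sham samples held 2.54 in rat 82, 3.00 in rat 84, 1.98 in rat 86, 2.85 in rat 91 and 3.62 in rat 94. Again the groups did not overlap: rat 83, the lowest, was at 12.5 times the sham mean and rat 88, the highest, at 234 times that mean. Counts per library were 2381 to 45603 in PBBI and 74 to 220 in sham, and the means were 306 CPM ± 211 (SD, n = 6) and 2.80 CPM ± 0.604 (SD, n = 5). With a log2 fold change of 6.77 (SE 0.674), or 109-fold, and an adjusted p of 0.00094 by edgeR, Hspb1 was 4th by p and 8th by fold change. Its exact permutation p was 0.00216, the smallest possible, with 6 of 6 PBBI rats above every sham rat.

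Contralaterally Hspb1 was uneven among the injured rats. Its CPM was 98.7 in PBBI rat 81, 5.76 in rat 83, 2.18 in rat 85, 36.8 in rat 88, 8.58 in rat 90 and 4.52 in rat 96. In the contralateral sham samples it was 2.52 in rat 82, 3.12 in rat 84, 1.42 in rat 86, 4.41 in rat 91 and 4.34 in rat 94. Rat 81 reached 31.2 times and rat 88 reached 11.6 times the sham mean, rat 96 lay just above the highest sham rat and rat 85 lay within the sham range. The log2 fold change was 3.05 (SE 0.896), with an adjusted p of 1.00 by edgeR (0.0044 before adjustment). It was 1.87 without the contralateral sample of rat 81. The exact two-sided permutation p was 0.0823, with 5 of 6 rats above every sham rat.

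Neither gene therefore passed in the contralateral cortex, where edgeR passed 0 of the 15907 genes (0%), with 366 at an unadjusted p under 0.05. DESeq2 with no prior passed 3 genes there, DESeq2 with a normal prior 0 and limma voom 1, and neither Hmox1 nor Hspb1 was among them. Full separation of PBBI above sham was found in 0.0943% of contralateral genes, and it held for neither of the pair.

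**Figure D1:**
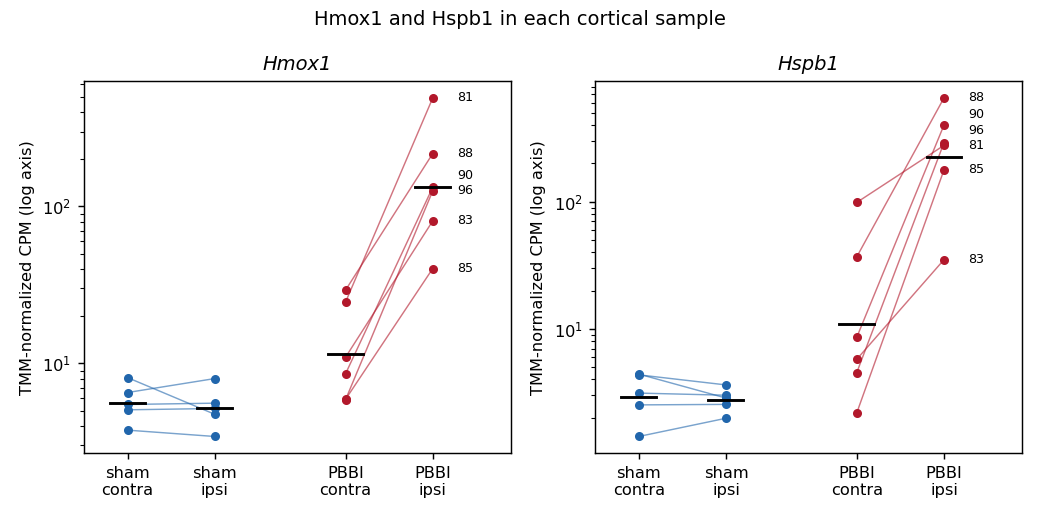
CPM of Hmox1 (left) and Hspb1 (right) in each of the 22 samples, on a log axis. Points are samples, lines join the hemispheres of 1 rat, black bars are means of log2 CPM turned back to CPM, and numbers name the PBBI rats at their ipsilateral points (spread apart where they would overlap). All 6 ipsilateral PBBI points lie above every sham point for both genes, while contralateral PBBI points reach from the sham range up to 29.3 CPM for Hmox1 and 98.7 CPM for Hspb1.

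The comparison of hemispheres asks whether the response lay mainly on the injured side. In each of the 6 PBBI rats both genes were higher ipsilaterally. The share of all genes with such a pattern was not counted. The ratio of ipsilateral to contralateral CPM for Hmox1 was 20.0 in rat 81, 7.39 in rat 83, 6.81 in rat 85, 7.42 in rat 88, 15.4 in rat 90 and 21.4 in rat 96. For Hspb1 it was 2.81 in rat 81, 6.08 in rat 83, 81.6 in rat 85, 17.8 in rat 88, 46.8 in rat 90 and 64.4 in rat 96. The ratio thus spanned a far narrower range for Hmox1 than for Hspb1, whose smallest value was that of rat 81, the rat with the highest contralateral Hspb1. In the sham rats the same ratio stayed between 0.584 and 1.23 for Hmox1 and between 0.647 and 1.39 for Hspb1.

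Within PBBI, ipsilateral against contralateral, Hmox1 had a log2 fold change of 3.67 (SE 0.634, adjusted p 0.0132 by edgeR) and Hspb1 one of 3.55 (SE 0.950, adjusted p 0.0564). In that fit 3.56% of 15973 genes passed. Since both samples came from the same animal, the fit was repeated with the rat as a replicate block. It gave 3.55 (SE 0.288, adjusted p 0.00361) for Hmox1 and 4.44 (SE 0.770, adjusted p 0.0161) for Hspb1, with 10.3% of genes past the threshold. Hspb1 thus passed only in the paired fit of these 2, and there the call was lost when any 1 of rats 88, 90 or 96 was left out, with an adjusted p of up to 0.0627. An exact two-sided sign-flip permutation test gave p = 0.0312 for each gene, the smallest that 6 rats allow.

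Within sham, neither gene differed between hemispheres beyond its spread. The log2 fold change was -0.10 (SE 0.273) for Hmox1 and -0.18 (SE 0.319) for Hspb1, both with an adjusted p of 1.00 by edgeR, and with the rat as a block it was -0.11 (SE 0.182) and -0.10 (SE 0.202), both at 0.999. Of the sham comparison 0% of 15747 genes passed in either fit, with 47 at an unadjusted p under 0.05 without the block and 238 with it, and DESeq2 with no prior and limma voom also passed 0. The exact sign-flip permutation p was 0.75 for Hmox1 and 0.625 for Hspb1, in a design of 5 rats whose smallest p is 0.0625.

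Whether the injury effect itself was larger on the injured side was tested as the difference of the 2 effects. For Hmox1 the ipsilateral effect exceeded the contralateral one by 3.78 (log2, SE 0.731, adjusted p 0.0333 by edgeR), and 0.326% of 16587 genes passed. For Hspb1 the difference was 3.73 (SE 1.08), similar in size, and its adjusted p was 0.142. With the rat as a block the differences were 3.65 (SE 0.356, adjusted p 0.00107) and 4.53 (SE 0.829, adjusted p 0.0138), and 4.27% of genes passed. Exact permutation of the rats' own hemisphere differences gave p = 0.00216 for Hmox1 and 0.00433 for Hspb1, with each of the 6 injured rats above the 5 sham rats in both tests. The share of all genes with this separation was not counted. Without the block, Hmox1 passed in only 8 of the 22 fits that each left out 1 sample, with a difference of 3.18 to 4.12 and an adjusted p of up to 0.0814. Hspb1 passed in 2 of these fits, at 4.90 without the contralateral sample of rat 81 (adjusted p 0.0126) and at 3.96 without the ipsilateral sample of rat 83 (adjusted p 0.0436). In the blocked fits both genes passed with each of the 11 rats left out in turn, over 3.47 to 3.80 for Hmox1 and 4.10 to 5.09 for Hspb1.

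**Figure D2:**
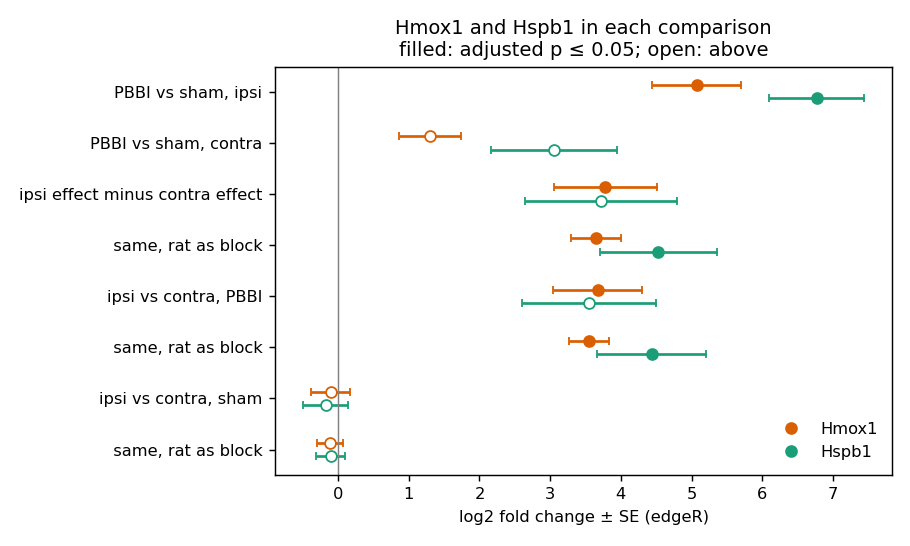
Log2 fold change ± SE (edgeR) of Hmox1 and Hspb1 in the 5 comparisons, with the 3 that compare hemispheres shown also with the rat as a block. Filled points have an adjusted p of 0.05 or less: both genes ipsilaterally at 5.07 and 6.77, neither contralaterally or between sham hemispheres, and Hspb1 between hemispheres only with the block.

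The injured rats did not rank alike by the 2 genes. Rat 81 was the highest of 6 for ipsilateral Hmox1 and the 4th for Hspb1, whereas rat 85 was the lowest for Hmox1 with a Hspb1 value above that of rat 83. Across the 6 PBBI rats, ipsilateral log2 CPM of the pair gave Pearson's r = 0.462 (exact permutation p = 0.364) and Spearman's rho = 0.6 (exact permutation p = 0.242). Leaving out rats 81 and 85, the farthest from the median of Hmox1, turned r into 0.915. That value is over 4 rats, too few to say whether the pair is related. Contralaterally r was 0.920 (exact permutation p = 0.0194, 0.0778 adjusted over the 4 relations computed) and rho 0.829 (exact permutation p = 0.0583, adjusted 0.233). Over the 4 rats other than 88 and 81 this r was 0.667, so its higher value leans on the 2 highest rats. Both values of a pair of genes come from 1 library and share its scaling. Between hemispheres of the same rats, r was 0.778 for Hmox1 (exact permutation p = 0.0667, adjusted 0.133; rho 0.657, exact p = 0.175) and 0.412 for Hspb1 (exact permutation p = 0.440; rho 0.429, exact p = 0.419). Without rats 81 and 88 these fell to 0.246 and 0.0757.

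Per base of gene model, 1566 bases for Hmox1 and 879 for Hspb1, the transcripts were about equally abundant in sham cortex. The ratio of Hspb1 to Hmox1 counts per base, which needs no scaling between libraries, ran from 0.669 to 1.16 in ipsilateral sham samples and from 0.675 to 1.41 in contralateral ones. In the ipsilateral PBBI samples it was 1.01 in rat 81, 0.771 in rat 83, 7.88 in rat 85, 5.38 in rat 88, 5.40 in rat 90 and 4.13 in rat 96. Rats 81 and 83 thus kept the proportion seen in sham while the other 4 held several times more Hspb1 than Hmox1. In the contralateral PBBI samples the ratio was 7.17 in rat 81, 0.938 in rat 83, 0.658 in rat 85, 2.24 in rat 88, 1.78 in rat 90 and 1.37 in rat 96, so rat 81 had its Hspb1 excess on the side away from the injury. Both samples of rat 81, alone among those of PBBI rats, had the letters PFC in their titles. The contralateral sample of sham rat 82, with the same letters, had a ratio of 0.888. Whether the ratio depends on the piece of cortex was not tested.

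The mean log2 ratio was 1.67 higher in PBBI than in sham ipsilaterally, a 3.18-fold difference, with 4 of 6 rats above every sham rat (exact two-sided permutation p = 0.0455). This ratio was taken up after the values were seen, and the p rose to 0.111 without any 1 of rats 85, 88, 90 or 96 and to between 0.0619 and 0.105 without any 1 sham rat. Contralaterally the difference was 0.87 (exact permutation p = 0.141). With 1 rat left out it ran from 0.46 without rat 81 (exact permutation p = 0.246) to 1.14 without rat 85 (exact permutation p = 0.0397).

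**Figure D3:**
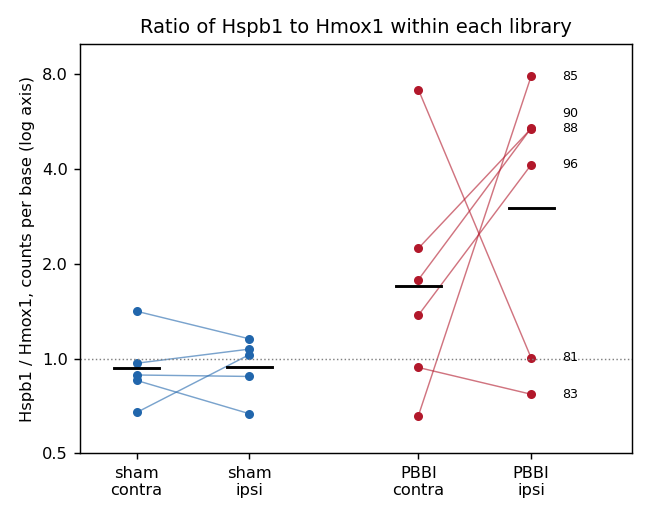
Ratio of Hspb1 to Hmox1 counts per base within each library, on a log axis. Points are samples, lines join the hemispheres of 1 rat and black bars are means on the log scale; sham ratios lie between 0.669 and 1.41, and PBBI ratios from 0.658 to 7.88, with rat 81 high contralaterally and 4 other rats high ipsilaterally.

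The promoter of Hspb1 is shown because heat shock factor 1 binds short inverted repeats of GAA, and Hspb1 was among the genes with the steepest ipsilateral differences. RefSeq's sequence of the 250 bases before its start, on the minus strand at chr12:26432302-26432551 of the rat build GRCr8 (a later build than that of the counts), reads 5′ to 3′ as follows, with matches to GAANNTTC in capitals.
Hspb1 promoter: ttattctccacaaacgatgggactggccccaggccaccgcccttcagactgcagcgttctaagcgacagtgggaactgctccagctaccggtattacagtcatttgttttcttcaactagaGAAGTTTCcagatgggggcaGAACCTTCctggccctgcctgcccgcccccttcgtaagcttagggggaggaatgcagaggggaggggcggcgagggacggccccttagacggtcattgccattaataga

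The window held 2 matches, at 129 to 122 and at 109 to 102 bases before the start. GAANNTTC reads the same on both strands, and 7.23% of the 33469 promoters of the same table held it in such a window. No match was found on either strand to the other order of the pair, TTCNNGAA (7.48% of promoters), to a heat shock element triplet, in which both pairs overlap (0.663%), to the antioxidant response element TGACNNNGC (10.1%), to the AP-1 site TGANTCA (6.34%) or to the TATA box TATAAA (12.9%). Of 30 promoters found for the named genes of the stress lists described next, 6 held GAANNTTC, those of Hspb1, Hspb8, Hspd1, Bag3, Serpinh1 and Osgin1. These are letter matches in a fixed window, not measured binding.

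Other genes of the same stress responses were read from 6 lists. A symbol could be paired with an identifier only through tables in which the study listed genes it had called in these samples, so the named members of a list are not an independent sample of it, and their counts and medians describe those members alone. The median log2 fold change of all genes was -0.02 ipsilaterally and -0.01 contralaterally. The ipsilateral count of each list stands beside the 4.68% of all genes that passed there, higher or lower.

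Of 23 heme and iron genes 4 were named and tested, and 3 of them rose ipsilaterally, against the 4.68% of all genes, with a median log2 fold change of 2.69. Beside Hmox1 these were Lcn2 at 3.79 (SE 0.808, adjusted p 0.0200), the siderophore-binding lipocalin 2, and Cp at 1.59 (SE 0.210, adjusted p 0.00232), the ferroxidase ceruloplasmin. Lcn2 had a mean of 36.1 CPM ± 23.0 in PBBI (n = 6) and 2.61 ± 3.15 in sham (n = 5), and its highest sham sample, at 8.09, lay above its lowest PBBI sample, at 7.17. Cd163, the macrophage receptor for hemoglobin bound to haptoglobin, had 1.29 (SE 0.385, adjusted p 0.0834).

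Among 10 small heat shock genes 4 were named, of which Hspb7 was too low to test, with at most 36 counts in a library. Hspb1 and Hspb8 rose, and Hspb8, a partner of the co-chaperone BAG3, changed far less, by 1.53 (SE 0.397, adjusted p 0.0468), from a mean of 30.8 CPM ± 10.5 in sham to 88.8 ± 45.6 in PBBI. The groups overlapped for Hspb8, with 28.7 CPM in the lowest PBBI sample and 42.7 in the highest sham sample. Hspb3 had 1.47 (SE 0.602, adjusted p 0.224). The median of the 3 tested was 1.53.

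Of 31 other heat shock proteins and chaperones 5 were named and tested, and 4 rose, with a median of 1.13. Bag3, which links chaperones of the HSP70 family to autophagy, stood at 2.12 (SE 0.490, adjusted p 0.0289). Its groups overlapped, with 4.75 CPM in the lowest PBBI sample and 6.59 in the highest sham sample. Serpinh1, the collagen chaperone HSP47, stood at 1.05 (SE 0.228, adjusted p 0.0217) and Hspa2, an HSP70 family member, at 1.13 (SE 0.279, adjusted p 0.0378). Hspa1b, the stress-induced HSP70, stood at 4.47 (SE 0.988, adjusted p 0.0244), from 1.06 to 80.8 CPM in PBBI and 0.666 to 1.18 in sham, so the groups overlapped, and its reads may be shared with the near-identical Hspa1a. Hspd1, the mitochondrial chaperonin, had 0.62 (SE 0.197, adjusted p 0.107).

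All 4 named metallothionein identifiers, metal-binding proteins induced by zinc and oxidants, rose, with a median of 2.46. They were Mt2A at 2.22 (SE 0.295, adjusted p 0.00232), Mt1m at 2.06 (SE 0.454, adjusted p 0.0235), and 2 identifiers that share the symbol Mt1, ENSRNOG00000038047 at 3.25 and ENSRNOG00000025764 at 2.70. Close copies in this family can share reads.

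Of 38 NRF2 and antioxidant genes 10 were named and tested, and 3 rose, with a median of 1.14. Maff, a small MAF partner of NRF2 and BACH1, stood at 3.22 (SE 0.578, adjusted p 0.00856), the glutathione peroxidase Gpx2 at 2.87 (SE 0.598, adjusted p 0.0178) and Osgin1, an oxidative stress-induced growth inhibitor, at 2.66 (SE 0.562, adjusted p 0.0191). The groups overlapped for Maff and Gpx2. The lowest PBBI sample had 4.45 CPM of Maff and 0.382 of Gpx2, and the highest sham sample had 5.02 and 0.627. The enzymes Srxn1 (1.39, SE 0.515), Txnrd1 (0.95, SE 0.333), Cbr3 (1.33, SE 0.485), Ugdh (0.57, SE 0.183) and Akr1b8 (0.86, SE 0.605) and the small MAF gene Mafk (0.87, SE 0.264) did not pass, nor did the peroxiredoxin Prdx6, the only one below 0, at -0.72 (SE 0.210, adjusted p 0.0755). None of these 10 reached the log2 fold change of Hmox1.

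Of 18 cell stress regulators 11 were named and tested, and 5 rose, with a median of 2.47. The AP-1 gene Fosl1 stood at 5.11 (SE 0.838, adjusted p 0.00575), Myc at 2.84 (SE 0.455), the pseudokinase Trib3 at 2.52 (SE 0.574), and the growth arrest genes Gadd45a and Gadd45b at 2.17 (SE 0.355) and 1.93 (SE 0.492). The groups overlapped for Gadd45b and Trib3. The lowest PBBI sample had 10.3 CPM of Gadd45b and 0.544 of Trib3, and the highest sham sample had 16.7 and 0.559. Atf3, a transcription factor induced early after stress, had 2.64 with a wide error (SE 0.875, adjusted p 0.119). Gadd45g (2.6), Gdf15 (2.47), Cdkn1a (1.41), Jun (1.19) and Hif1a (0.66) did not pass either.

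Without the ipsilateral library of rat 85, 13.7% of genes passed. The count of higher genes was then 6 of 10 in the NRF2 list, with 1 lower, and 10 of 11 among the cell stress regulators, and it stayed at 3, 2, 4 and 4 in the others. Contralaterally 0 genes passed in any of the 6 lists by edgeR. Their unadjusted p was under 0.05 there for 2 heme and iron genes and 1 small heat shock gene, all higher, and for 1 cell stress regulator, lower. Hspb1 at 3.05 and Hmox1 at 1.30 had the highest contralateral log2 fold changes of the stress-list genes tested there.

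**Figure D4:**
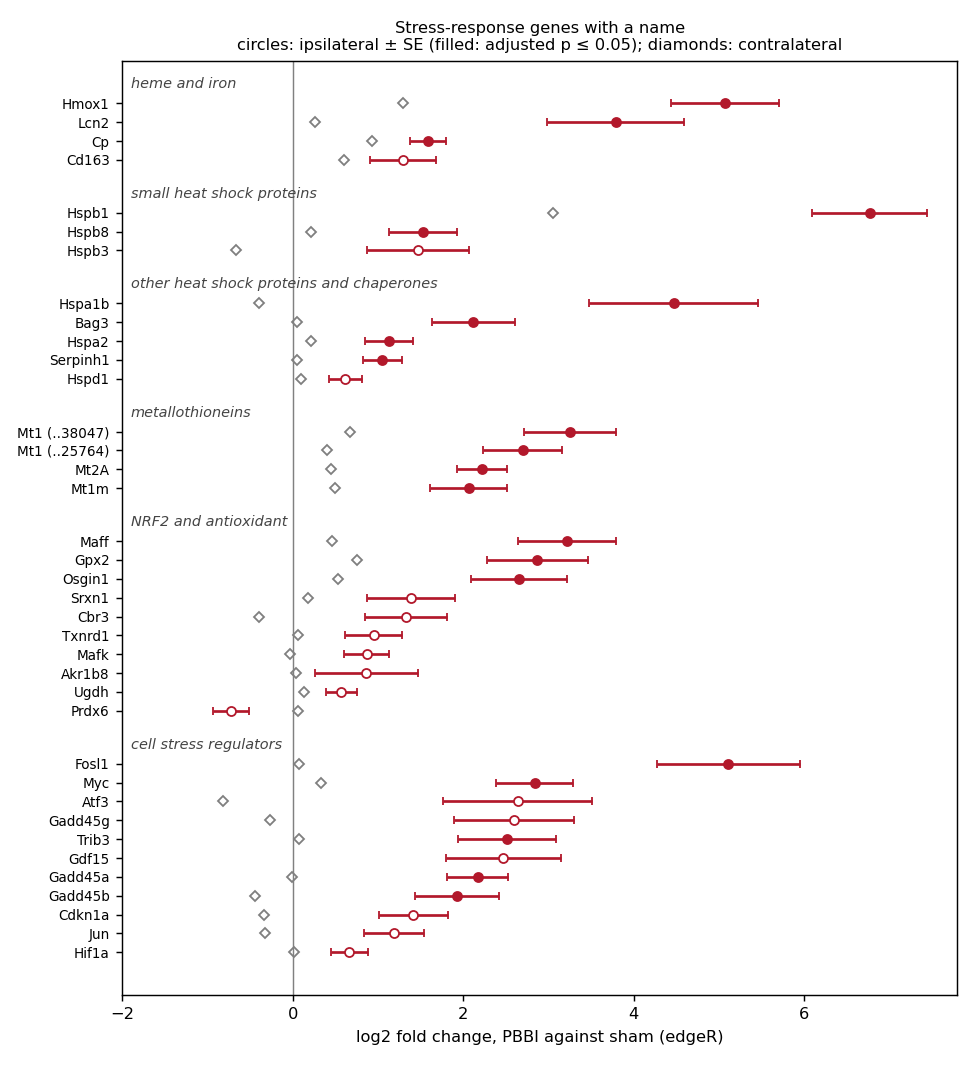
Log2 fold change of PBBI against sham for each named gene of the 6 stress lists. Circles are ipsilateral values ± SE, filled where the adjusted p is 0.05 or less, and diamonds are contralateral values (Gdf15 was not tested there). Hspb1 at 6.77, Fosl1 at 5.11 and Hmox1 at 5.07 lie farthest to the right.

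The named genes with profiles most like those of the pair were found by the root mean square difference of log2 CPM, centred on each gene's mean, over the 22 samples and 16586 other genes. For Hmox1 these were Cd14, a receptor of myeloid cells (0.563), Socs3, a feedback inhibitor of cytokine signalling (0.590), Ucn2, the peptide urocortin 2 (0.591), the lectin Lgals3 (0.609) and the macrophage scavenger receptor Msr1 (0.636). For Hspb1 they included Timp1, an inhibitor of matrix metalloproteinases (0.744), AC125248.1 (0.901), Socs3 (0.913) and Cd14 (1.04). Ucn2 and AC125248.1 had few counts in sham cortex, with ipsilateral means of 0.015 and 0.082 CPM. Their log2 CPM there depends in part on the prior count of 2. Hspb1 took only place 133 in the order for Hmox1, at 1.14, whereas Hmox1 took place 9 in the order for Hspb1. Points of 1 group share the large difference between the groups, and identifiers with no symbol were not ranked by name.

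Among these genes the ipsilateral log2 fold change was 5.17 (SE 0.708, adjusted p 0.00274) for Cd14, 5.32 (SE 0.554, adjusted p 0.00102) for Socs3 and 5.37 (SE 0.595, adjusted p 0.00132) for Timp1. Timp1 had a mean of 225 CPM ± 134 in ipsilateral PBBI samples and 5.41 ± 2.65 in sham samples. Contralaterally its log2 fold change was 2.19 (SE 0.580, adjusted p 1.00), against 3.05 for Hspb1.

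Markers of several cell types also rose in ipsilateral PBBI samples, though not all of them did. Like the stress genes, these markers could be named only where the study had called them in these samples, so their counts are not independent of that choice. Summed CPM over the 12 named macrophage and microglia markers was 387 to 1602 in ipsilateral PBBI samples and 140 to 291 in ipsilateral sham samples, and 8 of the 11 tested rose, against 4.68% of all genes higher or lower (9 rose and 1 fell without the ipsilateral library of rat 85, against 13.7%). The highest sum, 1602, was that of rat 81, which also had the highest ipsilateral Hmox1. Below rat 81 the orders differed. The next highest sum, 1334, was that of rat 96, whose Hmox1 of 126 CPM was below that of rats 88 and 90. The lowest sum was that of rat 83, while rat 85, with a sum of 642, had the lowest Hmox1. The microglial gene Tmem119, at -0.92 (SE 0.270, adjusted p 0.0799), did not pass. The sum over 7 named neutrophil markers was 20.9 to 270 in PBBI and 9.78 to 54.7 in sham, with 2 of 5 tested rising (3 without that library). Of these markers Elane had 0 counts in every ipsilateral sham library and at most 31 in a PBBI library. The 3 named vessel markers summed to 125 to 397 and 51.2 to 86.7, with 2 rising (Tagln and Vwf). The third, Rgs5, did not pass and went the other way, with a mean of 13.3 CPM ± 6.53 in PBBI and 23.0 ± 6.17 in sham. On average most of the PBBI vessel sum was Tagln, at a mean of 173 CPM ± 102 in PBBI and 24.7 ± 14.9 in sham. Red blood cell markers had no named gene, so the blood in the samples was not measured. The part of cell composition in the differences of Hmox1 and Hspb1 was not tested.

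The 5 named astrocyte markers summed to 2264 to 7579 CPM in ipsilateral PBBI samples and 468 to 1050 in sham samples, with 3 higher (Gfap, Vim and Cd44) and 1 lower (Aldh1l1, at -0.96, SE 0.244, adjusted p 0.0418). Gjb6, a gap junction gene of astrocytes, had the lowest log2 fold change of the 5, at -1.53 (SE 0.507, adjusted p 0.120), with a mean of 15.5 CPM ± 15.1 in PBBI and 44.7 ± 10.8 in sham. Most of the sum was Gfap, at a mean of 4563 CPM ± 2271 in PBBI and 575 ± 227 in sham, so the sum follows that gene. The 3 rats with the highest ipsilateral sums, rats 90, 96 and 88, at 7579, 7533 and 7111, were also those with the highest ipsilateral Hspb1. Their order differed, since rat 88 had the highest Hspb1. The lowest Hspb1, 35.0 CPM, was that of rat 83, with a sum of 2972. Rat 85 had the lowest sum, 2264, with 178 CPM of Hspb1. In the contralateral PBBI samples the sum was 4533 in rat 81, 1404 in rat 83, 639 in rat 85, 3430 in rat 88, 2095 in rat 90 and 1970 in rat 96, against 581 to 1330 in contralateral sham samples. Rats 81 and 88 led for the astrocyte sum and for contralateral Hspb1 alike, and rat 85 was lowest in both. The contralateral vessel sum was 209 in rat 88, 93.3 in rat 81, 84.4 in rat 83 and 52.9 to 59.7 in the other 3, against 42.1 to 65.0 in sham samples, so rats 88 and 81 led there as well. Of the vessel sum in rat 88, 161 was Tagln. The macrophage and microglia sum was 309 and 282 in contralateral samples of rats 81 and 88, and 207 to 290 in those of the other 4. These values stand beside the contralateral levels of Hspb1 and their part in them was not tested.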

How the data were processed

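RNA of 22 cortical samples was depleted of ribosomal RNA, made into stranded libraries and sequenced from both ends by the authors, who aligned reads with STAR 2.4.2a and counted them with featureCounts 1.4.3-p1 on the genes of Ensembl Rnor 6.0. The authors deposited raw counts per gene, with no normalization, and how strand and reads with several alignments were handled is not given in the sources used here. Groups, hemispheres and rats were taken from the sample labels. Samples of a group are different rats.

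Gene symbols came from the identifier and name columns of the study's supplementary lists (1822 identifiers). No other column of them was used. The genes and lists described here were chosen with earlier results of these data known. The genes named are Hmox1, Hspb1, each stress-list gene that had a symbol and passed the ipsilateral filter, and the 5 named genes with the profile closest to each, of which 1 is not reported here. Genes named from the marker lists and Hspb7 were picked after their values were seen.

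Counts were tested with edgeR 4.0.16 (R 4.3.3; TMM, filterByExpr, quasi-likelihood, Benjamini-Hochberg over all genes, threshold 0.05), the ipsilateral, contralateral, PBBI, sham and whole sample sets each in a fit of its own. Exact two-sided permutation tests used log2 CPM with a prior count of 2 (Python 3.11.15, numpy 2.4.6). Hemispheres of the same rat deviated together from their group means (r from 0.246 to 0.758 in 11 of 11 rats) and come from the same animal, so the fit with the rat as a block stands beside each comparison of hemispheres. DESeq2 1.42.0, limma 3.58.1 (voom with sample quality weights), another normalization, no filter, all samples in 1 fit and each sample left out were the alternatives. The procedures were tested on simulated data, in which each library was drawn independently, with no rat effect. Each library held at least 74 counts of either gene, and 42085341 or more in all.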

Additional observations from a re-analysis of the deposited data

Results flagged for a closer look

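The injury effect on Hmox1 was larger in the ipsilateral than in the contralateral cortex, by 3.78 on the log2 scale (SE 0.731, adjusted p 0.0333 by edgeR), and was set aside for a closer look because the effects of 1 contrast in 2 hemispheres differed in a test of the difference itself. The direction held in 6 of 6 PBBI rats, each of which had a larger hemisphere difference than any sham rat, and the value was 3.65 with the rat as a block (adjusted p 0.00107). How many genes share that separation was not counted. No sample of Hmox1, of Hspb1 or of their ratio stood outside its own group by Dixon's criterion at 95%.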

How the results depend on the processing

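Ipsilaterally both genes passed under each of the 6 other settings and in each of the 11 fits that left out 1 sample, over 4.04 to 5.28 for Hmox1 and 5.35 to 7.01 for Hspb1 on the log2 scale. The number of genes passing was 1639 with DESeq2 with no prior, 1628 with its normal prior, 5014 with limma voom, 1655 with all 22 samples in 1 fit, and 316 to 2186 with a sample left out. Contralaterally neither gene passed in any setting. The values ran over 0.54 to 1.46 for Hmox1 and 0.33 to 3.30 for Hspb1, with 3 genes passing in DESeq2 with no prior, 1 in voom and 0 to 1 with a sample left out.

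For the difference of the injury effect between hemispheres, Hspb1 also passed with DESeq2 with no prior (3.74), with voom (4.91) and with the rat as a replicate block (4.53). The number of genes passing was 353, 1663 and 708 in these. In simulated data 14% of the calls of DESeq2 in this comparison were false, against 4.27% for voom and 2.06% for the blocked fit. Of 200 changed genes DESeq2 recovered 147, voom 112 and the blocked fit 95. Those data held no rat effect, so they cannot show how the blocked fit behaves where hemispheres of a rat vary together. With 1 sample left out the difference was 3.18 to 4.12 for Hmox1, which passed in 8 of 22 fits, and 3.35 to 4.90 for Hspb1, which passed in 2, without the contralateral sample of rat 81 (adjusted p 0.0126) or the ipsilateral sample of rat 83 (adjusted p 0.0436), and 4 to 336 genes passed. Hmox1 lost its call without any 1 of 9 sham samples (all but the contralateral one of rat 86), of the contralateral PBBI samples of rats 83, 85, 90 and 96, or of the ipsilateral one of rat 88, with an adjusted p of up to 0.0814, while its estimate stayed at 3.62 or more in these. In the blocked fits with 1 rat left out, added after seeing the data, both passed in 11 of 11, over 3.47 to 3.80 for Hmox1 and 4.10 to 5.09 for Hspb1, with 192 to 1358 genes.

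Within PBBI, Hspb1 passed with DESeq2 with no prior (3.56), voom (4.82) and the replicate block (4.44), with 1535, 3695 and 1646 genes passing. With 1 sample left out it ran over 3.19 to 4.73 and passed in 3 of 12 fits, without the contralateral sample of rat 81 or the ipsilateral sample of rat 83 or 85. Hmox1 passed in 12 of 12, over 3.07 to 4.02, and 82 to 1545 genes passed. In blocked fits with a rat left out Hspb1 passed in 3 of 6, over 4.0 to 5.0, and 263 to 3356 genes passed. Within sham the sign turned in voom, to 0.071 for Hmox1 and 0.016 for Hspb1, and with 1 sample left out Hmox1 ran over -0.29 to 0.043 (above 0 without the ipsilateral sample of rat 86 or the contralateral one of rat 91), and neither passed in any setting. The replicate block changed no other call of the pair. Where calls moved with a setting the cause was not tested. Of the 5 genes most like each, Pearson's correlation kept 3 for Hmox1 and 2 for Hspb1.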

Other observations

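Between the hemispheres of the 6 PBBI rats, with the rat as a block in edgeR, many of the other named stress genes were also higher on the injured side. All 5 named chaperone genes passed, Hspa1b at 3.68 (SE 0.638, adjusted p 0.0161), Bag3 at 1.71 (SE 0.256, adjusted p 0.0112), Hspa2 at 1.02, Serpinh1 at 0.88 and Hspd1 at 0.54, as did all 4 metallothionein identifiers and 10 of 11 cell stress regulators, among them Fosl1 at 5.08 (SE 0.512, adjusted p 0.00652) and Atf3 at 3.23 (SE 0.548, adjusted p 0.0152), against 10.3% of all genes tested. Of the 4 heme and iron genes Hmox1 and Lcn2 passed, Lcn2 at 3.45 (SE 0.438, adjusted p 0.00825), and of the 10 NRF2 genes Maff and Osgin1 were higher and Prdx6 was lower, at -0.84 (SE 0.177, adjusted p 0.0246). The study had listed these genes from the same samples, so the counts are not independent of that choice.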
